A study of Homo sapiens with 4 samples.

Results

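The genes described here are 42 members of the NF-kB pathway together with the cytokines, chemokines and effector genes that it is known to control. They were taken by symbol from the deposited count tables, which list 23228 genes, and all 42 symbols were found. SKOV3 is an ovarian cancer cell line of human origin. Its cells were sorted with the ALDEFLUOR kit for high aldehyde dehydrogenase activity (ALDH+), grown as spheroids in serum-free medium with EGF, bFGF, B27, hydrocortisone and insulin, and are called ovarian cancer stem cells (OCSCs) in the labels. The Vehicle group (2 samples) and the LY500307 group (2 samples, 5 µM, an agonist of estrogen receptor β) were both treated for 24 h, and the comparison asks which transcripts LY500307 changed in these cells. Both groups come from the same sorted line, and no other cell type or untreated sample was compared.

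NF-kB proteins are dimeric transcription factors that are held in the cytoplasm by inhibitory IκB proteins. In the canonical pathway, receptors for TNF, IL-1 or microbial products activate the IKK kinase complex, which marks IκB for destruction and frees dimers that contain RELA or REL. In the non-canonical pathway, MAP3K14 (NIK) activates CHUK, the NFKB2 precursor is processed and RELB-containing dimers enter the nucleus. Many IκB genes are themselves NF-kB targets and so form negative feedback, while cytokines such as IL6 and IL8 are widely studied NF-kB outputs in ovarian cancer cells.

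Gene totals were 28841701 to 34943882 reads per library, and 50.0% to 54.4% of all tallied reads were assigned to no gene. The 4 libraries carried the epithelial markers EPCAM (194 to 240 CPM, reads scaled to a common library size by TMM) and KRT18 (23.5 to 31.8 CPM), but KRT8 had 9 to 33 reads, KRT19 at most 2 and CDH1 at most 4. Among the ovarian cancer markers PAX8 was at 0 in every library, WT1 had at most 2 reads, MUC16 at most 6 and MSLN at most 17. SKOV3 is known for amplified ERBB2 and for loss of CDKN2A, and CDKN2A was looked up after other values had been seen. ERBB2 had 48.7 to 59.4 CPM, a level per kilobase at the percentile 55.6 of all genes tested, and CDKN2A had 834 to 1107 reads in each library. SKOV3 is also known to secrete IL-6 and IL-8, yet IL6 and IL8 were at 0 in every library. On these points the counts go against the cell line label, and its part in the results, the silent cytokine and chemokine genes included, was not tested. Of the ALDH genes, ALDH1A2 had at most 11.3 CPM and ALDH1A1 4.71 to 5.41 CPM, and the list of 4 ALDH genes summed to 16.3 to 17.4 CPM with Vehicle and 15.6 to 16.3 CPM with LY500307. Of 10 leukocyte markers 8 were too low to be tested, with PTPRC at 0 to 4 reads, and the list summed to 13.3 to 15.4 CPM with Vehicle and 12.7 to 19.4 CPM with LY500307, mostly from CD68. The 6 fibroblast markers summed to 906 to 915 CPM with Vehicle and 994 to 1170 CPM with LY500307, almost all from the collagen genes COL1A1, COL1A2 and COL3A1. DCN and LUM, on the same list, were lower in both LY500307 samples than in both Vehicle samples, and the part of these differences in the results was not tested. Endothelial markers summed to 133 to 150 CPM with Vehicle and 135 to 151 CPM with LY500307, almost all from KDR. ESR1 was at 0 in every library and ESR2, which encodes the receptor that LY500307 targets, had 7 to 12 reads.

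The sequence that NF-kB dimers recognise, the kB consensus of 10 bases, was searched on both strands in the 250 bases before the RefSeq start sites of the members (GRCh38.p14). A start-site window was found for 33 members, and 16 of these held a match (48.5%), against 6.28% of all 27305 genes with a window. Many members were chosen as known NF-kB targets, which favours a match, so these shares describe the list and carry no test. The windows below are shown because kB matches stand before genes with very different read counts, and because NFKB1 and 5 CXCL chemokine genes hold the same 10 letters. NFKBIB and NFKBIZ, not shown, hold these letters too. Read along the other strand, the match of NFKBIA and a further match of REL, which overlaps the one shown, hold them as well. Each is read 5′ to 3′ along the strand of the gene, with the match in capitals.
NFKB1: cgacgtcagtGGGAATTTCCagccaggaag
NFKB2: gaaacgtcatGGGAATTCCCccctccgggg
REL: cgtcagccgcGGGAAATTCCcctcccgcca
NFKBIA: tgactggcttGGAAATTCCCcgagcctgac
TNFAIP3: acgtgactttGGAAAGTCCCgtggaaatcc
TNIP1: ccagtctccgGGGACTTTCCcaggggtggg
IL6: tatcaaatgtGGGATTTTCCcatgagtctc
CXCL1: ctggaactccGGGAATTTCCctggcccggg
CXCL2: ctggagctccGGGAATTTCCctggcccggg
CXCL3: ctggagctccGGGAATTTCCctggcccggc
CXCL5: catgagttcaGGGAATTTCCccagcatccc
CXCL6: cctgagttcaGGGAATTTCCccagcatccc
CCL20: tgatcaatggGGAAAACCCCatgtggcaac

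The window of NFKB1 lies at chr4:102501300-102501329 on the plus strand, and its match begins 49 bases before the start site. The match of NFKBIA, at chr14:35404811-35404840 on the minus strand, begins 81 bases before the start site. The match of IL6, at chr7:22727117-22727146 on the plus strand, begins 73 bases before it. The CXCL1, CXCL2 and CXCL3 matches have the same 10 letters and begin 79, 78 and 79 bases before their start sites, and the CXCL5 and CXCL6 matches, with these letters as well, begin 91 and 90 bases before theirs. Windows overlap between neighbouring start sites, and a match on one strand can overlap a match on the other, so matches are counted once per gene.

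Genes with a match ranged from silent to well expressed. Of the 16 members with a match, 6 (IL6, CXCL1, CXCL2, CXCL5, CXCL6 and CCL20) were at 0 in all 4 libraries, 1 (CXCL3) had at most 2 reads in a library and 9 were expressed highly enough to be tested. Those 9 had log2 fold changes from -0.26 to 0.25, with a median of -0.10, and none was called. Of the 17 members with a window but no match, 11 were tested, with log2 fold changes from -0.30 to 0.54, and 1, PLAU, was called. Of all 14473 genes tested 4.62% were called, so counts this small do not tell members with and without a match apart. RELB, the other member called, had no window, nor did NFKBIE, IKBKB, LIF, CSF1, CXCL16, CX3CL1, CCL2 and CCL5. The palindromic estrogen response element GGTCANNNTGACC, searched in the same way, was found before 0 of the 33 members and in 0.05% of all genes with a window. A match is a description of the letters only and is not evidence of binding.

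Of the 42 members, 26 passed edgeR's expression filter and 16 did not. Differentially expressed genes (DEGs) were called at the criteria named in the study's methods, a log2 fold change past 0.5 in either direction with an unadjusted p under 0.05, here from edgeR's quasi-likelihood test. LY500307 upregulated 2 of the 26 members tested, RELB and PLAU, and downregulated 0. Among all 14473 genes tested 4.62% were DEGs in either direction and 2.76% were upregulated. For the members, 2 of 26 is 7.69%, both upregulated. With 1 called gene fewer, the share would lie below the 4.62% in either direction but above the 2.76% upregulated. With all 4 samples and no block, none of the members had an adjusted p below 0.05 with edgeR or with DESeq2, whereas an unadjusted p below 0.05 was found for RELB and PLAU in edgeR's test. The median log2 fold change of the 26 members was 0.03, and that of all genes tested was 0.00. By sign 16 of the 26 members were positive (61.5%), against 50.0% of all genes tested. The LY500307 samples lay wholly above or below the Vehicle samples in CPM for 12 of the 26 members (46.2%), close to the 48.6% of all genes tested. In bulk RNA, a change in the number of cells of a kind and a change in RNA per cell cannot be told apart.

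**Figure D1:**
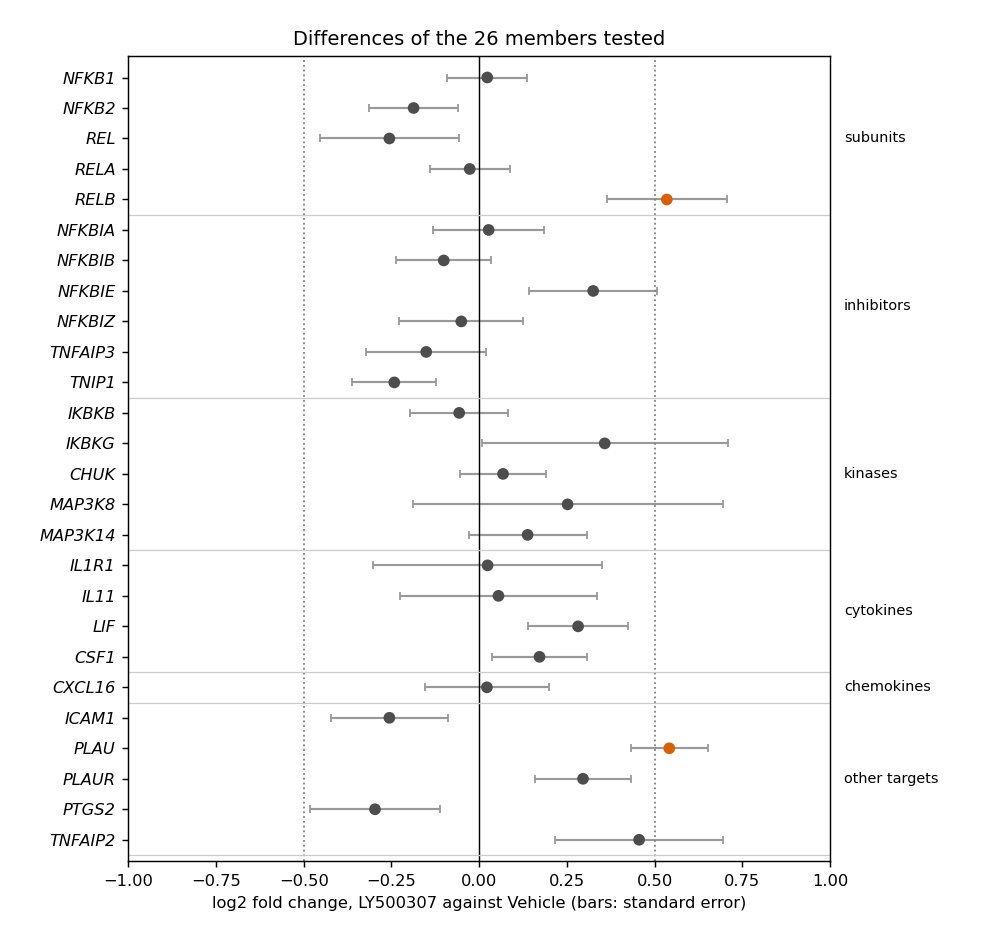
Log2 fold change (x axis, LY500307 against Vehicle) of the 26 members tested, grouped by role, with the standard error as bars and dotted lines at the limits of 0.5 in either direction. RELB (0.54) and PLAU (0.54), in orange, are the members past the limit, and the other 24 lie between -0.30 and 0.46.

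The NF-kB subunits were all expressed. RELA, the main activating subunit of the canonical pathway, had 56.5 and 60.03 CPM in the Vehicle samples and 60.6 and 53.7 CPM in the LY500307 samples. The groups overlapped completely, and the log2 fold change was -0.03 (SE, its standard error, 0.11). NFKB1, the partner of RELA in the most common dimer, was nearly equal in the groups, with a log2 fold change of 0.02 (SE 0.11). Per kilobase of its canonical transcript, RELA (22.9 CPM per kb over all samples) was the highest of the subunits, NFKB2 (15.6) and NFKB1 followed, RELB (5.04) was lower and REL (1.03) was the lowest. Of the 11108 bases of the REL transcript, 5702 overlap another annotated gene on the same strand, and the part of this overlap in the REL level was not tested.

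RELB, the activating subunit of the non-canonical pathway, is annotated on the plus strand of chromosome 19, between 45504719 and 45541450 (GRCh37). It had 8.91 and 9.68 CPM with Vehicle (267 and 275 reads) and 12.3 and 14.6 CPM with LY500307 (427 and 473 reads). Both LY500307 samples were above both Vehicle samples. The mean was 9.29 ± 0.543 CPM (SD, n = 2) with Vehicle and 13.5 ± 1.65 CPM (SD, n = 2) with LY500307. This corresponded to a log2 fold change of 0.54 (SE 0.17, edgeR unadjusted p = 0.0141, adjusted p = 0.422), and DESeq2 gave 0.54 with an adjusted p of 0.432. The call did not hold without Vehicle replicate 1 (log2 fold change 0.48, edgeR unadjusted p = 0.0916) or without LY500307 replicate 2 (log2 fold change 0.41).

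NFKB2, whose product pairs with RELB, did not move with it. It had 50.0 and 50.2 CPM with Vehicle and 48.0 and 40.0 CPM with LY500307, a log2 fold change of -0.19 (SE 0.13). The ratio of RELB to NFKB2 CPM was 0.178 and 0.193 with Vehicle and 0.256 and 0.366 with LY500307. REL, a subunit best known from lymphoid cells, had 11.7 and 13.2 CPM with Vehicle and 12.1 and 8.76 CPM with LY500307. Its log2 fold change was -0.26 (SE 0.20) and rested on LY500307 replicate 2. Without LY500307 replicate 1 it was -0.505 and met the criteria, while without LY500307 replicate 2 it was -0.04.

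The inhibitors and feedback regulators gave no DEG among 6 members. TNIP1, which binds the ubiquitin-editing enzyme TNFAIP3 and restrains NF-kB, was the highest of them in CPM. It had 52.3 and 55.2 CPM with Vehicle and 48.8 and 42.1 CPM with LY500307. The LY500307 samples were the lower ones, without overlap, and the log2 fold change was -0.24 (SE 0.12, edgeR unadjusted p = 0.0793). NFKBIA, which encodes IκBα and is the classical early feedback target, had 23.9 and 20.6 CPM with Vehicle and 25.2 and 20.2 CPM with LY500307. The groups overlapped, and its log2 fold change was 0.03 (SE 0.16). TNFAIP3 (A20) had a log2 fold change of -0.15 (SE 0.17). NFKBIB, another IκB gene, had one of -0.10 and NFKBIZ, an atypical nuclear IκB gene, one of -0.05. NFKBIE, which encodes IκBε, was the sole regulator whose LY500307 samples (10.4 and 12.0 CPM) were both above its Vehicle samples (8.14 and 9.75 CPM), with a log2 fold change of 0.33 (SE 0.18, edgeR unadjusted p = 0.112).

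The 5 kinase genes of the pathway also gave no DEG. CHUK, which encodes IKKα, was the highest, with 51.6 and 48.2 CPM with Vehicle and 48.2 and 56.4 CPM with LY500307, a log2 fold change of 0.07 (SE 0.12). IKBKB, which encodes IKKβ, had 36.1 and 29.3 CPM with Vehicle and 30.9 and 32.0 CPM with LY500307, and its log2 fold change was -0.06 (SE 0.14). Both groups overlapped for these catalytic subunits. IKBKG, the scaffold subunit NEMO, had only 45 to 82 reads per library, but it shares most of its sequence with a pseudogene copy and reads that fit more than 1 place were not counted, so its level is uncertain. MAP3K14 had a log2 fold change of 0.14 (SE 0.17). MAP3K8 (TPL2), a kinase upstream of ERK, was near the limit of the filter with 20 to 32 reads.

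**Figure D2:**
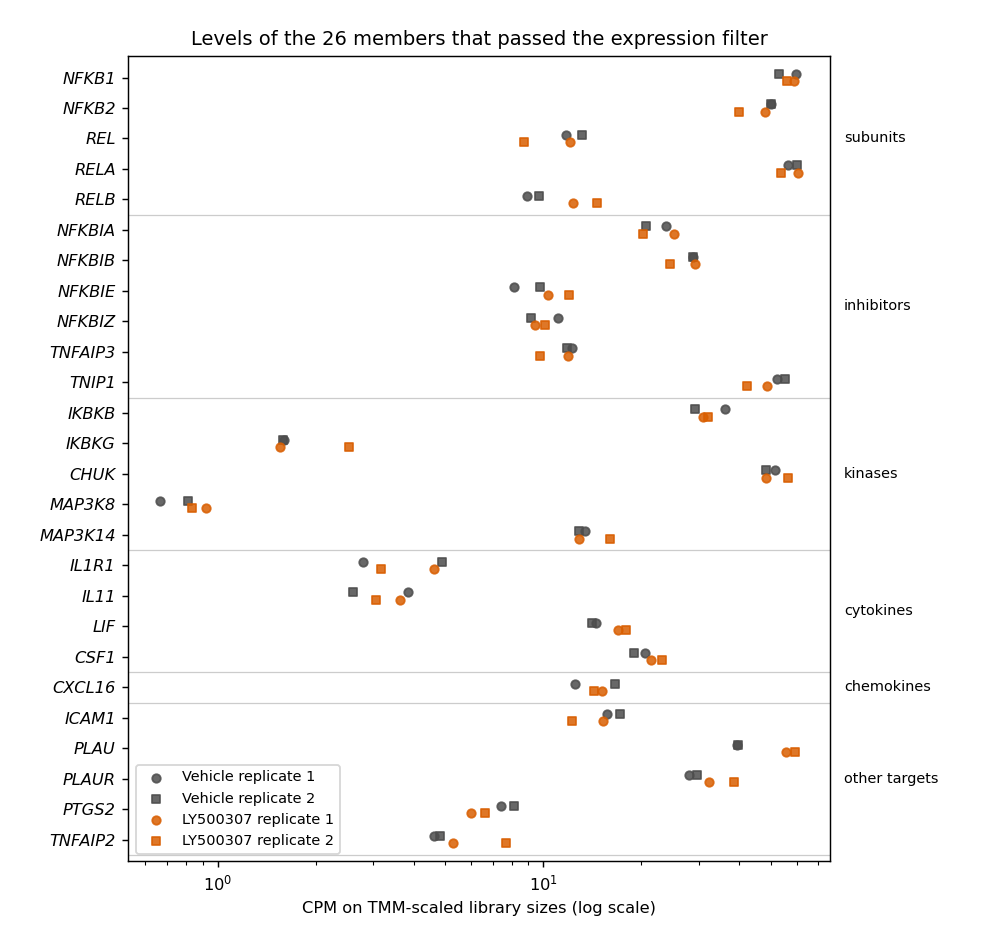
CPM on TMM-scaled library sizes (x axis, log scale) of the 26 members that passed the filter, with 1 point per library, Vehicle in gray and LY500307 in orange, grouped by role. PLAU (39.4 and 39.7 CPM against 55.8 and 59.4 CPM) shows the clearest gap between groups, while RELA and NFKBIA overlap.

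Most cytokine genes were not expressed at this depth. IL6, IL1A and CSF2 were at 0 in all 4 libraries, and a count of 0 allows up to 3 reads, or 0.0864 to 0.106 CPM depending on the library. This limit covers counting error only. TNF had 0 and 1 reads with Vehicle and 11 and 2 reads with LY500307. IL1B, a secreted form of IL-1, was at 0 with Vehicle and had 2 and 3 reads with LY500307. CSF1, the growth factor of macrophages, was the highest cytokine gene, with 20.6 and 19.0 CPM with Vehicle and 21.5 and 23.1 CPM with LY500307. The LY500307 samples were both above the Vehicle samples, by a log2 fold change of 0.17 (SE 0.14) that did not pass the test. LIF, a cytokine of the IL-6 family that signals through IL6ST, had 14.5 and 14.1 CPM with Vehicle and 16.9 and 17.9 CPM with LY500307. It also did not overlap, with a log2 fold change of 0.28 (SE 0.14, edgeR unadjusted p = 0.0823). IL11, of the same family, had a log2 fold change of 0.05 (SE 0.28) on 74 to 126 reads. IL1R1, the signalling receptor for IL-1, had one of 0.02 (SE 0.33) on 84 to 160 reads.

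The chemokine genes were nearly silent. CXCL1, CXCL2, CXCL5, CXCL6 and IL8 (CXCL8), ligands that attract neutrophils through CXCR2, were at 0 in all 4 libraries, as were CCL20 and CCL28. CXCL1, CXCL2 and CXCL3 are near-identical in parts, so reads shared between them would not have been counted, whereas IL8 has no such close copy. CXCL3 had 0 reads in both Vehicle samples and 1 and 2 reads with LY500307. CCL5, a T cell attractant, had 0 and 0 reads with Vehicle and 3 and 2 with LY500307, and CCL2, a monocyte attractant, had 3 reads in LY500307 replicate 1 and 0 elsewhere. CX3CL1, a membrane-bound chemokine, had 1 and 0 reads with Vehicle and 2 and 4 reads with LY500307. CXCL16, the other membrane-bound chemokine, was the exception. It had 12.5 and 16.6 CPM with Vehicle and 15.1 and 14.4 CPM with LY500307, so that the groups overlapped, and a log2 fold change of 0.02 (SE 0.18).

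**Figure D3:**
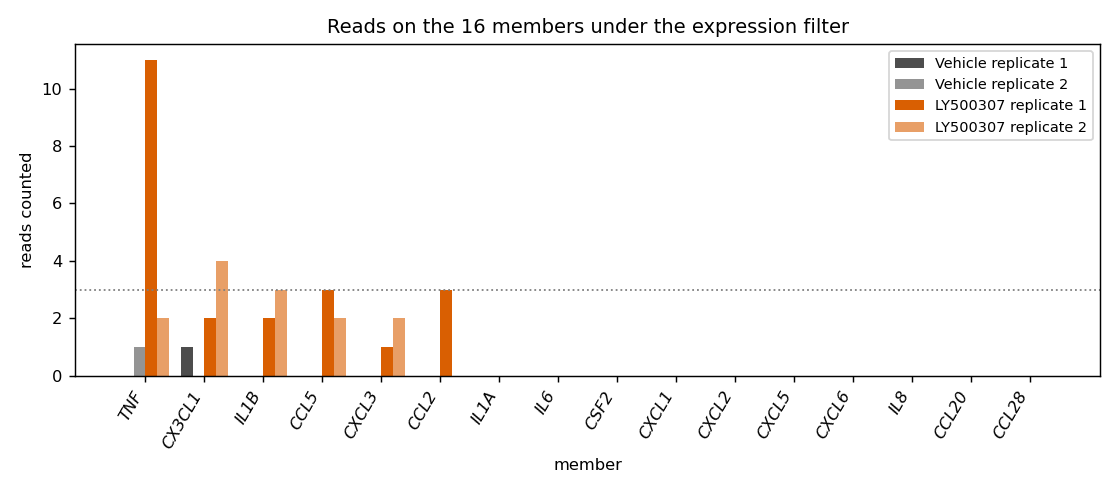
Reads counted (y axis) in each of the 4 libraries on the 16 members under the expression filter, Vehicle in gray and LY500307 in orange, with a dotted line at 3 reads. Only TNF (11 reads in LY500307 replicate 1) and CX3CL1 (4 reads in LY500307 replicate 2) exceed the line, and 10 members are at 0 throughout.

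Of the 16 members under the filter, 10 were at 0 in every library, or 23.8% of the 42 members, against 20.8% of all genes listed. The other 6 had a higher mean CPM with LY500307 than with Vehicle, 6 of 6, where 56.4% of the 3934 genes under the filter with a read did. Over the 16 members the reads summed to 1 and 1 with Vehicle and to 22 and 13 with LY500307. Genes with at least 1 read also numbered more in the LY500307 libraries (17054 and 17420) than in the Vehicle libraries (16615 and 16653), and the part of this difference in the low counts was not tested. No fold change is given for these 6 genes, since their counts lie at or near the limit of detection.

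Of the 5 adhesion, protease and enzyme targets of NF-kB, 1 passed the test. LY500307 upregulated PLAU, which encodes the serine protease urokinase that converts plasminogen to plasmin and is tied to invasion. It is annotated on the plus strand of chromosome 10, between 75668935 and 75677254 (GRCh37). PLAU had 39.4 and 39.7 CPM with Vehicle (1180 and 1128 reads) and 55.8 and 59.4 CPM with LY500307 (1935 and 1920 reads). The Vehicle samples were almost equal and both LY500307 samples were well above them. Mean CPM was 39.5 ± 0.225 with Vehicle and 57.6 ± 2.58 with LY500307 (SD, n = 2 each). The log2 fold change was 0.54 (SE 0.11, edgeR unadjusted p = 0.00114, adjusted p = 0.422), and DESeq2 gave 0.54 with an adjusted p of 0.0982. Without LY500307 replicate 2 the log2 fold change was 0.498, just inside the limit of 0.5, and without any other library it stayed above the limit. The exons of C10orf55 overlap those of PLAU by 429 bases on the opposite strand. C10orf55 had 19, 19, 15 and 7 reads, and the part of the overlap in the PLAU counts was not tested.

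PLAUR, the receptor that holds urokinase at the cell surface, had 28.03 and 29.7 CPM with Vehicle and 32.3 and 38.6 CPM with LY500307. The LY500307 samples were again above without overlap, but the log2 fold change was 0.30 (SE 0.14, edgeR unadjusted p = 0.0615) and did not pass. The ratio of PLAU to PLAUR CPM was 1.40 and 1.34 with Vehicle and 1.73 and 1.54 with LY500307.

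TNFAIP2, a TNF-inducible gene of cell protrusion, had 4.60 and 4.82 CPM with Vehicle and 5.27 and 7.67 CPM with LY500307. Its log2 fold change of 0.46 (SE 0.24) did not pass. It met the criteria without LY500307 replicate 1 (0.71) and was 0.16 without LY500307 replicate 2. ICAM1, the leukocyte adhesion molecule, had 15.7 and 17.2 CPM with Vehicle and 15.2 and 12.3 CPM with LY500307, a log2 fold change of -0.26 (SE 0.17). PTGS2, which encodes cyclooxygenase-2, had 7.41 and 8.13 CPM with Vehicle and 6.02 and 6.62 CPM with LY500307, a log2 fold change of -0.30 (SE 0.19). Neither fell past the test, although the LY500307 samples lay below the Vehicle samples for both. Part of ICAM1 (815 bases of its exons) overlaps the antisense gene ICAM4-AS1, and the strand setting of the counting is not given in the sources used here.

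**Figure D4:**
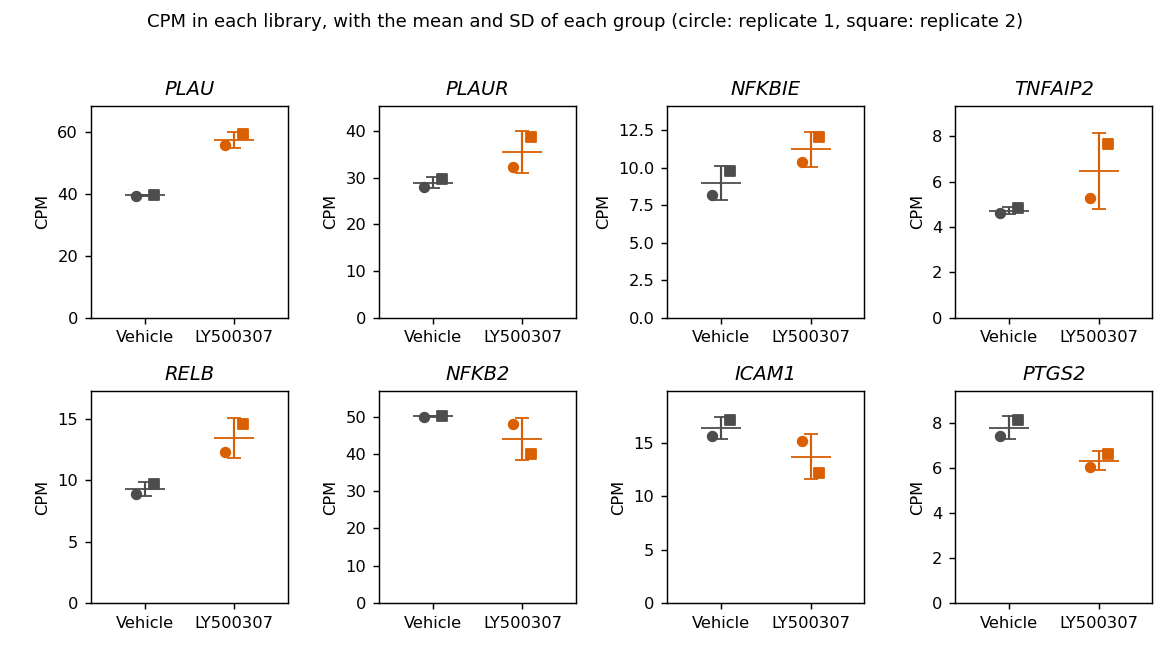
CPM (y axis, from 0) of 8 genes in each library, Vehicle in gray and LY500307 in orange, with the mean as a horizontal line and the SD of the 2 samples as error bars. PLAU and RELB are DEGs and the other 6 genes are not. In every gene shown except PTGS2, the DEGs included, LY500307 replicate 2 lies farther from the Vehicle mean than replicate 1.

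Replicates in the LY500307 group were more variable than those in the Vehicle group. Over the 26 members tested the median absolute log2 difference was 0.23 between the LY500307 samples and 0.12 between the Vehicle samples. The LY500307 pair was farther apart for 17 of the 26 members (65.4%), as for 66.6% of all genes tested. The members' median log2 ratio to the Vehicle mean was 0.06 in LY500307 replicate 1 and -0.01 in LY500307 replicate 2, with members of both signs in each.

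Other genes of the pathway were counted on 3 lists. Of 41 signalling adaptors, ubiquitin ligases, kinases and other regulators of the pathway, 40 were tested and 0 were DEGs with edgeR. Of the 40, 3 had an unadjusted p below 0.05 in edgeR's test (7.5%, against 11.6% of all genes tested), with 20 positive and 20 negative. DESeq2 called none of the genes on this list either. Their median log2 fold change was 0.00. Of 44 cytokine, chemokine and TNF family receptors, a list that also holds Toll-like receptors, 29 were tested. Of the 29, 22 were positive (75.9%, against 50.0% of all genes tested) and 3 were upregulated (10.3%, CXCR2 included, against 2.76%). The median of this list was 0.28, and the LY500307 samples lay wholly above the Vehicle samples for 16 receptors (55.2%, against 24.2% of all genes tested) and wholly below for 1 (3.45%, against 24.4%). These shares and the median count CXCR2, which passed the expression filter through the LY500307 samples alone. They are a description of the list and carry no test. FAS, a death receptor of the TNF family, had 17.5 and 16.5 CPM with Vehicle and 23.2 and 28.3 CPM with LY500307, a log2 fold change of 0.60 (SE 0.15).

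CCR10, the receptor for CCL28, had 14.3 and 14.7 CPM with Vehicle and 16.9 and 28.3 CPM with LY500307, a log2 fold change of 0.64 (SE 0.23). The LY500307 samples were far apart, and 439 bases of its exons overlap a gene on the opposite strand. CXCR2, the receptor of the silent neutrophil attractants, was a DEG on 5 and 8 reads with Vehicle and 28 and 19 reads with LY500307 (log2 fold change 1.63, SE 0.60). It passed the expression filter through the LY500307 samples alone, so its direction was favoured by the filter and its call supports nothing further. Among 67 other NF-kB target genes, 40 were tested, with a median log2 fold change of 0.09. By sign 24 of the 40 were positive, where 50.0% of all genes tested were. LY500307 upregulated 3 of the 40 (7.5%, IL23A included, against 2.76% of all genes tested). Among these were EFNA1, an ephrin ligand, which had 43 and 33 reads with Vehicle and 87 and 69 reads with LY500307, and IL23A, a cytokine subunit, which had 5 and 1 reads with Vehicle and 17 and 16 reads with LY500307. IL23A, like CXCR2, passed the filter through the LY500307 samples alone. With all 4 samples no gene on the 3 lists was downregulated. Over the lists together 6 of 107 genes tested were DEGs (5.61%, CXCR2 and IL23A included), against 4.62% of all genes tested, and DESeq2 called 3, FAS and CCR10 among them. FAS and CCR10 did not meet them without LY500307 replicate 2, EFNA1 did not without Vehicle replicate 2 or LY500307 replicate 1, and CXCR2 and IL23A did not without either LY500307 replicate, nor CXCR2 without Vehicle replicate 1 and IL23A without Vehicle replicate 2.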

How the data were processed

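Per the labels, reads of 50 nt single-end total RNA libraries were aligned to hg19 with TopHat2 2.0.8b and counted with HTSeq, and the authors deposited raw counts per gene symbol. The methods text describes stranded mRNA libraries instead. The HTSeq version, its annotation and its strand setting are not given in the sources used here. Reads aligned to more than 1 place were not counted. Nothing says that the samples came from separate cultures, so p-values measure the spread between these samples, which may be technical. Tally lines (50.0% to 54.4% of all tallied reads) were left out.

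The test was edgeR 4.0.16 under R 4.3.3 (TMM, filterByExpr, quasi-likelihood test, Benjamini-Hochberg adjustment over all 14473 genes tested), without a block. The standard error is the absolute log2 fold change divided by the square root of F. With 2 samples per group an exact permutation test cannot give a two-sided p below 0.333. The alternatives were DESeq2 1.42.0, its size factors, library totals, other filters, a replicate block and leaving out each sample, and a crossed block was added after the data were seen. The script was tested on simulated data. Lengths are those of canonical transcripts (GENCODE v44lift37, GRCh37), which matched 84.9% of symbols. Promoter windows come from RefSeq. By rule, values in every sample were given for member DEGs, members with an unadjusted p below 0.05 or past 0.5 in log2 fold change and the highest member of each role, and DEGs of the pathway lists were named, except for 1 that is not reported here. Other members were described after their values were seen. The members and lists were chosen with earlier results of these data known.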

Additional observations from a re-analysis of the deposited data

How the results depend on the processing

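RELB and PLAU stayed the called members, with 2 DEGs, under each alternative that used all 4 samples, and 180 values kept their direction and call. The 1 exception was RELA, whose log2 fold change of -0.03 became 0.01 with library totals alone. The pathway lists held 6 DEGs, and 3 with DESeq2 (the cause was not tested), 7 with library totals alone (TLR1 added), 8 with every gene of at least 1 count (TLR1 and IL17RC added) and 5 at 1 CPM in 2 samples (TLR1 added, CXCR2 and IL23A lost). Among all genes 59.8% of DEGs were upregulated and 69.7% with library totals alone, while without LY500307 replicate 2 the direction turned (148 up, 204 down).

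With 1 sample left out, all DEGs numbered 352 (without LY500307 replicate 2) to 1987 (without LY500307 replicate 1), member DEGs 0 to 4 and pathway DEGs 3 to 10 with the same samples left out, of which 1 and 2 were downregulated. Adjusted p-values are not given for these fits, since each leaves 1 sample in a group. The lone sample was then assumed to vary like the other group. Log2 fold changes that changed sign ranged from -0.064 to 0.12 for NFKB1, from -0.12 to 0.06 for RELA, from -0.14 to 0.18 for NFKBIA, from -0.23 to 0.02 for NFKBIB, from -0.18 to 0.091 for NFKBIZ, from -0.20 to 0.10 for IKBKB, from -0.031 to 0.67 for IKBKG, from -0.048 to 0.18 for CHUK, from -0.031 to 0.29 for MAP3K14, from -0.33 to 0.48 for IL1R1, from -0.20 to 0.36 for IL11 and from -0.17 to 0.24 for CXCL16.

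The replicate block gave 717 DEGs, with 2 members and 6 pathway genes among them, and changed no member's call. Same-numbered samples deviated from their group means with a correlation of -0.07 over all genes tested and -0.23 over genes above the median level, and they were not treated as pairing the samples. Crossing the numbers, chosen after the data were seen, gave 781 DEGs and an edgeR adjusted p of 0.0188 for PLAU, the 1 member below 0.05. In that fit 381 of all 14473 genes tested had an edgeR adjusted p below 0.05, against 0 without a block, so PLAU was not singled out. At 3 reads or fewer per library, the silent cytokines and chemokines are below what this depth can compare.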
